A study of Mus musculus with 4 samples.

Results

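The 10 genes described here were the mouse Toll-like receptor genes Tlr1, Tlr2, Tlr3, Tlr4, Tlr6, Tlr7, Tlr8, Tlr9 and Tlr13 together with Cd14, chosen by symbol from the 55367 gene rows of the count tables. The tables came from 4 libraries of polyadenylated RNA from B16-F10 tumors, which grow from a mouse melanoma cell line after its transfer into mice. The labels differ on the sort: the protocol names cells positive for CD45.2, found on leukocytes, and for CD8, the coreceptor of cytotoxic T cells, whereas the sample characteristics give CD45.2 alone. The titles gave 2 libraries labeled WT and 2 labeled KO. The design text of the series names mice with floxed Satb1, a T cell chromatin organizer, that carry either ThPOK-cre, which is active in the CD4 lineage, or E8I-cre, which is active in CD8 T cells, beside WT mice, and the titles do not say which of these Cre lines the KO libraries came from. The study's methods describe young adult mice of both sexes in general, and the age, sex and number of animals behind each library were not stated, so p-values measure only the spread between these libraries, which may be technical.

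Toll-like receptors are membrane proteins of innate immunity that bind molecules of microbes or of damaged cells and signal through the adaptors MyD88 and TRIF to NF-kappaB and interferon regulatory factors. TLR1, TLR2, TLR4 and TLR6 work at the cell surface, where TLR2 pairs with TLR1 or TLR6 to bind lipopeptides and TLR4 binds lipopolysaccharide with the help of MD-2 and CD14. TLR3, TLR7, TLR8, TLR9 and TLR13 bind nucleic acids in endosomes. In tumors these receptors are best known from macrophages, monocytes and dendritic cells, while T cells carry little of most of them.

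Tlr1 and Tlr6 are neighboring genes of nearly the same sequence in part of their length, and that limits how their counts can be read. On GRCm38/mm10, Tlr1 lies on chromosome 5 from 64924679 to 64933563 and Tlr6 on the same chromosome from 64952031 to 64960097, both on the minus strand. Of the 50-base windows of the longest coding transcript, 15.3% in Tlr1 also occurred in Tlr6, and 12.6% in Tlr6 also occurred in other genes, where Tlr1 accounted for 454 of the 456 windows. The 2 longest identical stretches of the coding sequences are shown because a read that falls wholly within them matches both genes. The first, of 229 bases, is exonic at chr5:64925537-64925765 in Tlr1 and at chr5:64953828-64954056 in Tlr6. The second, of 208 bases, is exonic at chr5:64925291-64925498 in Tlr1 and at chr5:64953582-64953789 in Tlr6. Both are given on the minus strand of the genome, which is the coding strand of the genes, and they differ in no base between Tlr1 and Tlr6.
Tlr1 and Tlr6, first stretch: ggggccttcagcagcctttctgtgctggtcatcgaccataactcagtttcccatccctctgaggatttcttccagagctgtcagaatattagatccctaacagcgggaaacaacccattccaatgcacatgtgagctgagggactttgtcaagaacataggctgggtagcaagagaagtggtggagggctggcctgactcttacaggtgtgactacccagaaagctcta
Tlr1 and Tlr6, second stretch: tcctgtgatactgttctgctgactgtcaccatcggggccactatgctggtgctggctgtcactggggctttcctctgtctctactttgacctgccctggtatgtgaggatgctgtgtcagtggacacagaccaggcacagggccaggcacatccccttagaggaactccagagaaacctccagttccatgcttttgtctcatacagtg
Reads with several alignments were set aside in the tables and made up 4.16% to 4.6% of all reads, so the counts of both genes come mainly from the rest of each transcript. Of the other members, only Tlr3 shared windows with another gene, 1.56% of them with Gm45542. The exons of Gm45542 overlap 7.32% of those of Tlr3 on the opposite strand, and the strand setting of the counting was not given, so the counts of Tlr3 are uncertain by that overlap.

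The depth and cell make-up of the libraries come first. Counts on genes ran from 4017875 to 5382915 per library, and 3 counts, the limit that a count of 0 allows, corresponded to 0.557 to 0.747 CPM, a unit in which the summed gene counts of a library are set to 1000000. On raw counts, Satb1, the target named for the knockout, went against the labels. WT 1 held 7 counts of it, WT 2 held 5, KO 1 held 131 and KO 2 held 55. The 10 T cell markers described below also differed, with 271 and 443 counts for the WT pair against 7384 and 6176 for the KO pair. The part of T cell content in the Satb1 counts was not tested. Whether the titles match the genotypes was not tested, so the direction of each difference given here holds for the titles only. Cd8a, which encodes the marker named in the protocol but not in the characteristics, stood at 5.97 and 6.57 CPM in the WT pair of libraries against 188 and 136 CPM in the KO pair (log2 fold change 4.34, edgeR quasi-likelihood test, adjusted p = 0.0172). The 10 T cell markers, among which Cd3g had the highest mean CPM, together took 0.00674% and 0.0104% of gene counts in WT 1 and WT 2, and 0.165% and 0.115% in KO 1 and KO 2, and 8 of them passed the threshold as higher. The gene named with each list below has the list's highest mean CPM over the 4 libraries, and need not lead in each of them. The 13 macrophage markers (Lyz2) took 2.99% of WT 1, 4.02% of WT 2, 2.29% of KO 1 and 2.88% of KO 2, and none of them was at 0 in any library. Lyz2 alone made up 24.5%, 33.6%, 66.0% and 38.0% of that list, and the other 12 markers took 2.26% of WT 1, 2.67% of WT 2, 0.781% of KO 1 and 1.79% of KO 2, lower in both libraries labeled KO. Melanoma markers (Dct) took 0.0217% and 0.0254% against 0.232% and 0.125%, and stromal markers (Col3a1) took 0.00204% and 0.00178% against 0.148% and 0.0203%. Of the stromal counts of WT 1 and WT 2, 51 and 63 were on the endothelial gene Pecam1 and only 7 and 1 on Col3a1. Monocyte markers (Ly6c2) took 0.169% of WT 1 and of WT 2, 0.253% of KO 1 and 0.184% of KO 2, while Ly6c2 itself was lower in both libraries labeled KO, at 486 and 360 CPM against 972 and 531. Conventional dendritic cell markers (Itgax) took 0.0101% to 0.0258%, the highest in KO 1, where Cd209a had 666 counts and Itgax 256. The 4 NK cell markers (Eomes) held 3 to 49 counts. The 5 B cell markers held 64 and 182 counts in WT 1 and WT 2 and 21 and 80 in KO 1 and KO 2, with 61, 182, 12 and 73 of these on Cd79b, and Pax5 was at 0 in all 4. The 5 neutrophil markers (S100a8) held 7 to 20 counts, and the 5 plasmacytoid dendritic cell markers (Pacsin1) held 8 to 45, with Siglech at 0 to 2. Xist, expressed from the inactive X of females, had 435, 216, 0 and 3 counts and the Y-linked Ddx3y 0, 0, 188 and 81. Group and sex therefore cannot be told apart for any gene compared here, the X-linked members Tlr7, Tlr8 and Tlr13 included. In bulk samples, fewer cells of a type and less RNA per cell cannot be told apart. The part that any of these lists had in the values of the members and of the pathway genes was not tested.

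**Figure D1:**
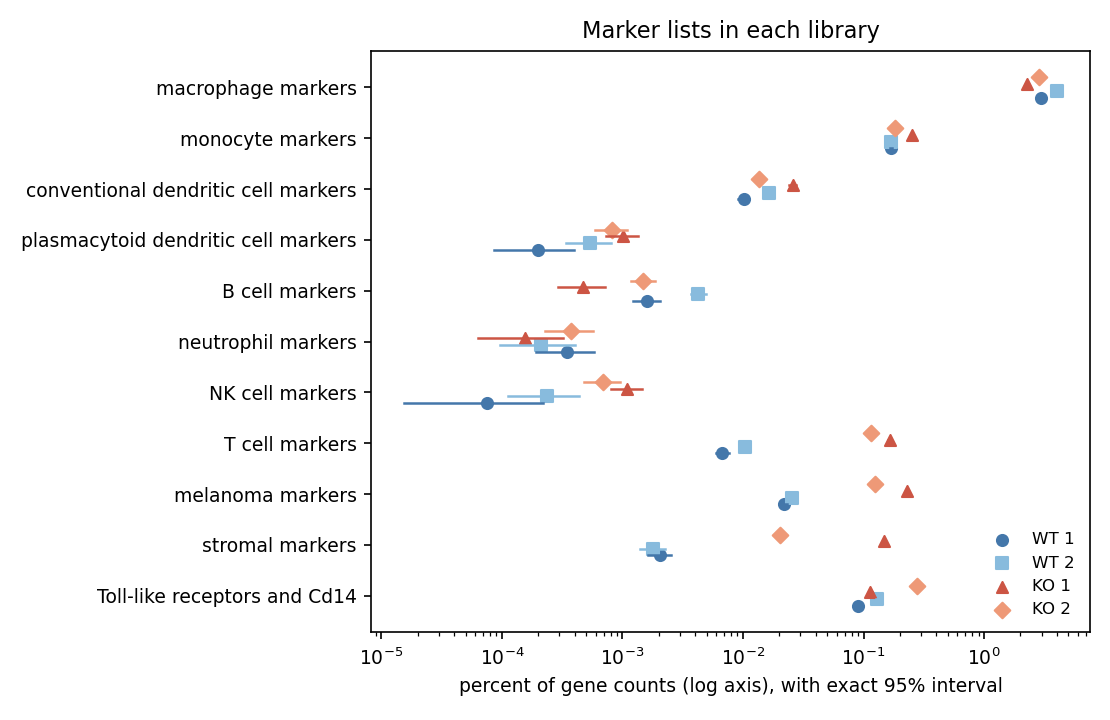
Percent of gene counts on each marker list and on the 10 members, on a log axis, with 1 point per library and exact Clopper-Pearson 95% intervals that cover counting error only. Macrophage markers sit between 2.29% and 4.02% in all 4 libraries with Lyz2 included, while T cell, melanoma and stromal markers sit higher in both libraries labeled KO than in both labeled WT.

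All 10 members were detected in every library and all 10 passed the filter on low counts, and none passed the threshold between the libraries labeled KO and WT (edgeR quasi-likelihood test, adjusted p under 0.05). Of the 11837 genes tested 0.574% passed, 0.549% as higher and 0.0253% as lower. DESeq2 also called 0 of 10. Before adjustment, 2 members had a p under 0.05, Tlr1 and Tlr9, both lower in KO 1 and KO 2, where 13.7% of all genes tested reached that level. Fitted log2 fold changes of KO over WT ran from -1.94 for Tlr9 to 0.76 for Cd14, with 3 above 0 and 7 below. Their median was -0.12, beside 0.051 over all genes tested and -1.29 over the 13 macrophage markers. It was -0.72 without KO 2 and 0.19 when only library size was used for scaling. On CPM, the groups did not overlap for 3 members, Tlr2 with KO 1 and KO 2 above and Tlr1 and Tlr9 with them below, and 48.4% of all genes tested did not overlap on that scale (35.9% with the KO pair above, 12.6% with it below). After scaling by trimmed mean of M-values (TMM), 3 of 10 did not overlap, Tlr1, Tlr6 and Tlr9, all lower, beside 47.9% of all genes tested (25.3% higher, 22.6% lower).

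**Figure D2:**
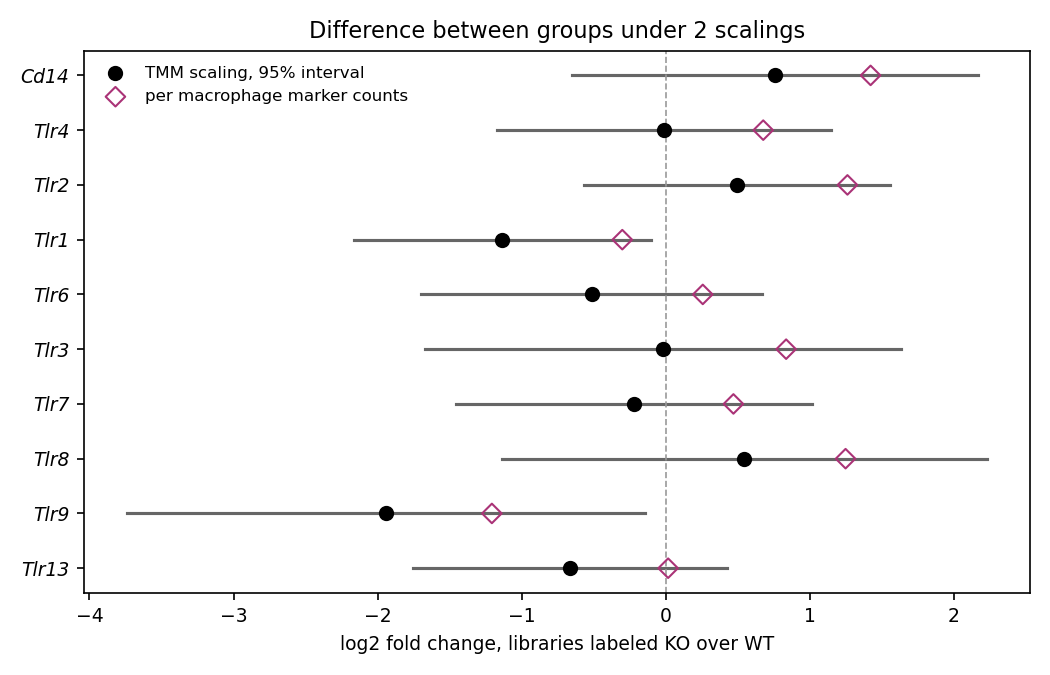
Log2 fold change of the libraries labeled KO over those labeled WT for each member, as black points with the 95% interval of the edgeR fit under TMM scaling, and as open diamonds when the counts on the 13 macrophage markers served as library size. The intervals of Tlr1 and Tlr9 lie below 0 and those of the other 8 members span it, and every diamond lies to the right of its point.

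Cd14, on chromosome 18, encodes the coreceptor that hands lipopolysaccharide to TLR4, and it was the most abundant member in each library. WT 1 held 597 CPM, WT 2 886, KO 1 763 and KO 2 2288. KO 2 stood 3.0-fold above KO 1, and KO 1 lay between the libraries labeled WT, so the groups overlapped. The mean of the WT pair was 741 ± 205 CPM (SD, n = 2) and that of the KO pair 1525 ± 1079 CPM (SD, n = 2). Its fitted log2 fold change was 0.76 with a 95% interval from -0.65 to 2.17 (edgeR quasi-likelihood test, adjusted p = 0.620). Without KO 2 it was -0.39, so its sign rested on that library.

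Tlr4, on chromosome 4 (66827584 to 66930284, plus strand), encodes the lipopolysaccharide receptor. WT 1 held 29.4 CPM, WT 2 36.6, KO 1 25.4 and KO 2 55.2, so the libraries labeled KO were the lowest and the highest of the 4. The means were 33.0 ± 5.12 CPM (SD, n = 2) and 40.3 ± 21.0 CPM (SD, n = 2), and the log2 fold change was -0.011 with a 95% interval from -1.17 to 1.15 (edgeR quasi-likelihood test, adjusted p = 0.995). This value was 0.29 when only library size was used for scaling, and it ran from -0.81 without KO 2 to 0.48 without KO 1. Ly96, which encodes the TLR4 partner MD-2 and was named after its values were seen, went another way than Tlr4 in KO 2, with 29.9 CPM for WT 1, 29.3 for WT 2, 25.2 for KO 1 and 7.99 for KO 2. Its log2 fold change was -1.21 with an SE of 0.58 (edgeR quasi-likelihood test, adjusted p = 0.398). KO 2 therefore held the highest Cd14 and Tlr4 and the lowest Ly96 of the 4 libraries.

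Tlr2, on chromosome 3 (83836272 to 83841767, minus strand), encodes the shared chain of the lipopeptide receptors and was the most abundant Toll-like receptor gene per length in every library. WT 1 held 103 CPM, WT 2 199, KO 1 225 and KO 2 297. Both libraries labeled KO were above both labeled WT, although WT 2 lay nearer to KO 1 than to WT 1, and after TMM scaling WT 2 passed KO 1. The means were 151 ± 68.0 CPM (SD, n = 2) and 261 ± 51.4 CPM (SD, n = 2). This gave a log2 fold change of 0.50 with a 95% interval from -0.57 to 1.56 (edgeR quasi-likelihood test, adjusted p = 0.676), and it was 0.12 without WT 1, 0.16 without KO 2, 0.74 without KO 1 and 0.88 without WT 2.

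Tlr1, whose product pairs with TLR2 to bind triacylated lipopeptides, stood at 37.6 CPM for WT 1, 51.4 for WT 2, 32.1 for KO 1 and 19.1 for KO 2. Both libraries labeled KO lay below both labeled WT, on 151 and 219 counts against 144 and 103. The means were 44.5 ± 9.77 CPM (SD, n = 2) and 25.6 ± 9.20 CPM (SD, n = 2). A log2 fold change of -1.13 with a 95% interval from -2.17 to -0.10 missed the threshold after adjustment (edgeR quasi-likelihood test, adjusted p = 0.320). Its sign was the same under every alternative fit, from -1.48 without KO 1 to -0.30 with macrophage marker counts as library size.

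Tlr6, whose product pairs with TLR2 to bind diacylated lipopeptides, had the smallest spread of the 10. WT 1 held 12.9 CPM, WT 2 16.9, KO 1 12.9 and KO 2 13.2, a range of 1.31-fold over the 4 libraries. WT 2 stood above the other 3, which were nearly level, and the groups overlapped on CPM. Its log2 fold change was -0.51 with an SE of 0.53 (edgeR quasi-likelihood test, adjusted p = 0.701), and it was 0.26 with macrophage marker counts as library size. Because reads within the stretches shown above matched both genes and were set aside, the levels of Tlr1 and Tlr6 are likely too low in all 4 libraries.

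Tlr13, an X-linked gene (106143204 to 106160493, plus strand), encodes the endosomal receptor for bacterial ribosomal RNA, which humans lack, and it was the most abundant endosomal receptor gene per length in each library. WT 1 held 98.6 CPM, WT 2 65.9, KO 1 50.003 and KO 2 81.0. WT 1 was the highest and KO 1 the lowest, with the other 2 libraries between them, so the groups overlapped. Its fitted log2 fold change was -0.67 with a 95% interval from -1.76 to 0.42 (edgeR quasi-likelihood test, adjusted p = 0.566), and with macrophage marker counts as library size it was 0.017. It was -0.27 without WT 1 and -1.18 without KO 2.

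Tlr7 and Tlr8 are neighbors on the X chromosome (167304929 to 167330558 and 167242696 to 167264329, both minus strand) and encode receptors for single-stranded RNA. Tlr7 stood at 18.2 CPM for WT 1, 21.6 for WT 2, 13.8 for KO 1 and 28.2 for KO 2. Tlr8 stood at 3.48 CPM for WT 1, 5.398 for WT 2, 5.13 for KO 1 and 10.8 for KO 2, on 14 to 58 counts. KO 2 was the highest library for both genes, and KO 1 was the lowest for Tlr7 but lay between the libraries labeled WT for Tlr8. For Tlr7 the log2 fold change was -0.22 with an SE of 0.55 (edgeR quasi-likelihood test, adjusted p = 0.889), and it was 0.087 when only library size was used for scaling and -0.96 without KO 2. That of Tlr8 was 0.55 with an SE of 0.75 (edgeR quasi-likelihood test, adjusted p = 0.783), and without KO 2 it was -0.22.

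Tlr9, on chromosome 9 (106222598 to 106226883, plus strand), encodes the receptor for unmethylated CpG DNA and had the largest fitted difference of the 10, at very low counts. WT 1 held 24 counts, WT 2 25, KO 1 8 and KO 2 11. This was 5.97 and 5.87 CPM against 1.79 and 2.04 CPM, without overlap between the groups. At so few counts, counting error limits how far the closeness inside each group can be read. The means were 5.92 ± 0.0751 CPM (SD, n = 2) and 1.91 ± 0.182 CPM (SD, n = 2). A log2 fold change of -1.94 with a 95% interval from -3.74 to -0.14 missed the threshold after adjustment (edgeR quasi-likelihood test, adjusted p = 0.330). Its sign was the same under every alternative fit, from -2.15 without KO 2 to -1.21 with macrophage marker counts as library size. Plasmacytoid dendritic cells and B cells are rich in TLR9. The plasmacytoid markers held 8 and 23 counts in the WT pair against 45 and 44 in the KO pair, of which Pacsin1 held 0 and 8 against 33 and 35. Cox6a2, of the same list, held 7 and 13 counts against 4 and 4, and Siglech was at 0 to 2. The B cell marker Cd79b read 15.2 and 42.7 CPM against 2.68 and 13.6 CPM, while Cd79a held 0 and 0 counts against 7 and 3, Ms4a1 held 3 and 0 against 2 and 4, and Pax5 was at 0. The part of either cell type in the Tlr9 values was not tested.

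Tlr3, on chromosome 8 (45395665 to 45411080, minus strand), encodes the receptor for double-stranded RNA and was among the scarcest members. WT 1 held 3.24 CPM, WT 2 8.21, KO 1 8.71 and KO 2 5.39, on 13 to 39 counts. WT 1 was the lowest, and the other 3 did not order by group. Its log2 fold change was -0.019 with an SE of 0.74 (edgeR quasi-likelihood test, adjusted p = 0.994), and its sign turned with scaling, to 0.30 when only library size was used.

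Levels of different genes were compared per kilobase of exon, since longer genes gather more reads. On this scale the mean over the 4 libraries was 654 CPM per kilobase for Cd14 and 68.3 for Tlr2. Tlr13 followed with 17.2, Tlr1 with 10.5, Tlr4 with 6.60, Tlr7 with 5.01 and Tlr6 with 3.75. The lowest were Tlr8 with 1.73, Tlr3 with 1.23 and Tlr9 with 1.13 CPM per kilobase. Cd14 and Tlr2 were ranked 1 and 2 in all 4 libraries. Among neighbors in this order, ranges over the libraries were separate only for Cd14 above Tlr2, Tlr2 above Tlr13 and Tlr6 above Tlr8. The other 6 neighbor pairs overlapped in range, and the last pair, Tlr3 and Tlr9, changed places under TMM scaling. Tlr9 ranked 8 in both libraries labeled WT and 10 in both labeled KO, although with the longest transcript as length it ranked 9 in WT 2.

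**Figure D3:**
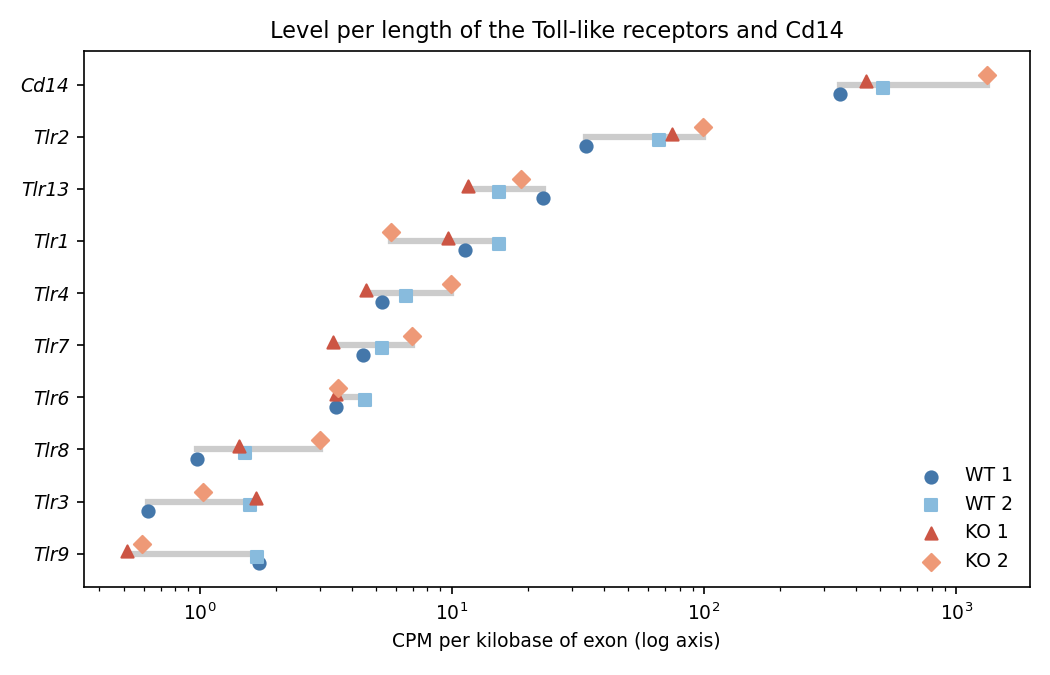
Level of each member in CPM per kilobase of exon, on a log axis, with 1 point per library and a gray bar from the lowest to the highest, ordered by the mean. Cd14 lies above Tlr2 and Tlr2 above Tlr13 in every library, and the bars of most other neighbors overlap.

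The make-up of the Toll-like receptor transcripts differed between libraries. Of the summed level per kilobase of the 9 receptor genes, Tlr2 made up 40.2% for WT 1, 56.0% for WT 2, 67.2% for KO 1 and 66.6% for KO 2. Tlr13 made up 27.0%, 13.0%, 10.5% and 12.7% in the same order. The surface receptors Tlr1, Tlr2, Tlr4 and Tlr6 together made up 63.8% for WT 1, 78.5% for WT 2, 83.2% for KO 1 and 79.5% for KO 2. WT 1 had the lowest Tlr2 and surface shares and the highest Tlr13 share, and WT 2 lay nearer to the libraries labeled KO than to WT 1 in all 3 shares.

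Ratios of counts inside a library do not depend on how libraries are scaled, and 7 were computed between members. Tlr2 per Tlr1 was 2.73 for WT 1, 3.87 for WT 2, 6.99 for KO 1 and 15.5 for KO 2. Tlr2 per Tlr6 was 7.92, 11.8, 17.3 and 22.5 in the same order. Both ratios were higher in both libraries labeled KO, and they share the counts of Tlr2. Tlr1 per Tlr6 was 2.90 and 3.04 against 2.48 and 1.45, lower in both libraries labeled KO. Cd14 per Tlr4 was 20.3 and 24.2 against 29.96 and 41.5. Tlr7 per Tlr9 was 3.04 and 3.68 against 7.75 and 13.8, with only 8 and 11 counts of Tlr9 behind the last pair. Tlr7 per Tlr8 was 5.21 and 4.0 against 2.70 and 2.62. Tlr13 per Tlr7 overlapped between groups, with 5.42, 3.05, 3.61 and 2.87. Several ratios share a gene, no background share for ratios was computed, and the values describe 4 libraries without a test.

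**Figure D4:**
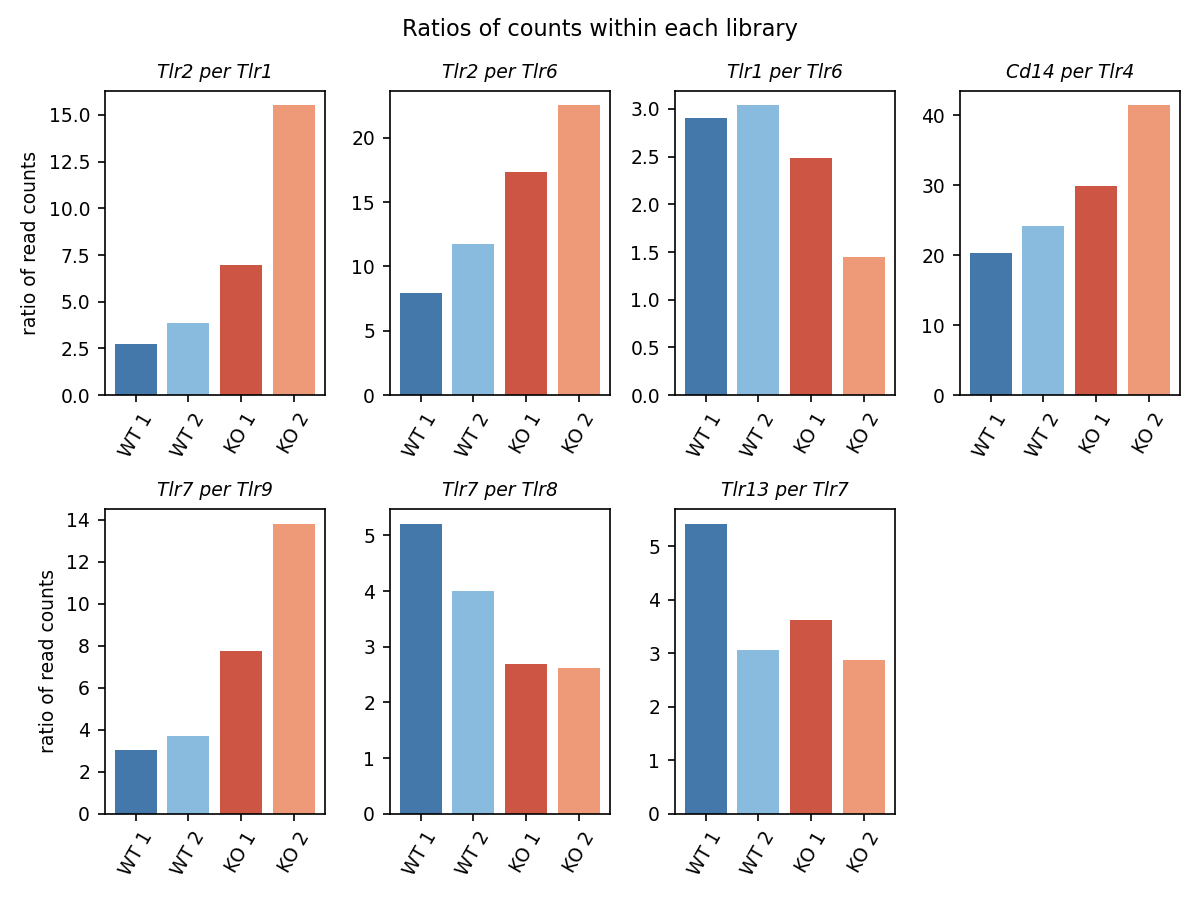
Ratio of read counts between pairs of members in each library, with bars that start at 0 and 1 bar per library. Both libraries labeled KO stand above both labeled WT in 4 panels (Tlr2 per Tlr1, Tlr2 per Tlr6, Cd14 per Tlr4, Tlr7 per Tlr9), below them in 2 (Tlr1 per Tlr6, Tlr7 per Tlr8), and overlap with them for Tlr13 per Tlr7. Several panels share a gene, and no share over other gene pairs was computed to set beside these counts.

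Set against the counts on the 13 macrophage markers of the same library, the members spread out differently. Tlr2 had 3.43 and 4.94 counts per 1000 macrophage marker counts in the WT pair against 9.79 and 10.3 in the KO pair. Cd14 had 19.96 and 22.04 against 33.2 and 79.4, so that on this scale KO 1 also lay above both libraries labeled WT. Tlr9 had 0.200 and 0.146 against 0.0778 and 0.0709. Tlr4, Tlr6 and Tlr8 were also higher in both libraries labeled KO on this scale, and Tlr1, Tlr3, Tlr7 and Tlr13 overlapped. That made 5 members higher and 1 lower, where 53.8% of all genes tested were higher and 2.82% lower without overlap on this scale. With Lyz2 left out of the list, 7 members were higher without overlap, beside 69.7% of all genes tested, and Tlr9 overlapped with 0.265, 0.220, 0.229 and 0.114 counts per 1000. Scaling by these markers moved the median log2 fold change of all genes tested from 0.051 to 0.84 and that of the 10 members from -0.12 to 0.57, and the adjusted p-values of all 10 members stayed above the threshold.

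The other genes of the pathway were read from 6 lists of 49 genes, of which 47 were tested. None passed the threshold (edgeR quasi-likelihood test), 1 did by DESeq2, and 7 higher and 2 lower genes had a p under 0.05 before adjustment, beside 13.7% of all genes tested. Of the 3 other Toll-like receptor genes, Tlr5 and Tlr11 were scarce, at 6.50 CPM or less in each library. Tlr12, whose product binds profilin of protozoa, had the highest mean of the 3. It read 8.71 and 28.6 CPM in WT 1 and WT 2 and 2.68 and 8.55 CPM in KO 1 and KO 2. Tlr11 stood above it in KO 1 at 4.24 CPM. The log2 fold change of Tlr12 was -1.98 (edgeR quasi-likelihood test, adjusted p = 0.308), and without KO 2 it was -3.18. The median of the 3 genes was -0.57, and it ran from -1.43 without KO 2 to -0.067 without KO 1. Tlr11 and Tlr5 had log2 fold changes of 0.42 and -0.57, with SEs of 0.81 and 0.95.

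Of the 8 coreceptor and trafficking genes, 2 were fitted above 0 and 6 below, with a median log2 fold change of -0.62. It was -0.26 without KO 1, -0.95 without KO 2 and 0.078 with macrophage marker counts as library size. Unc93b1, which carries the endosomal receptors from the endoplasmic reticulum, read 640 and 892 CPM in WT 1 and WT 2 and 338 and 831 in KO 1 and KO 2, lowest in KO 1, and later values follow that order. Ly86, whose product partners the receptor homolog CD180, read 231, 424, 502 and 195 CPM and overlapped between groups. Hsp90b1, which encodes the chaperone that folds most Toll-like receptors, read 42.6 and 143 CPM in the WT pair and 662 and 280 in the KO pair. Its log2 fold change was 2.03 with an SE of 0.63 (edgeR quasi-likelihood test, adjusted p = 0.221), and DESeq2 called it with an adjusted p of 0.0277. Hsp90b1 is a general chaperone that melanoma, stromal and T cells also express, and the markers of those cells were higher in the same libraries, but their part in its values was not tested.

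The 18 adaptor and kinase genes tested had a median log2 fold change of -0.10, with 8 above 0 and 10 below. It was -0.28 without KO 2, 0.24 when only library size was used for scaling and 0.66 with macrophage marker counts as library size. Myd88, whose product is the adaptor of every receptor here except TLR3, was nearly level at 197, 237, 184 and 235 CPM. Pik3ap1, an adaptor that links the receptors to phosphoinositide 3-kinase, read 329, 317, 116 and 308 CPM, with KO 1 apart from the other 3. Irak2, a kinase of the MyD88 complex, read 93.8, 69.9, 51.8 and 82.9 CPM. All 3 interferon regulatory factors were fitted below 0. Irf7 read 1041, 480, 199 and 761 CPM and Irf5 510, 438, 208 and 411 CPM, again with KO 1 the lowest, while Irf3 spanned only 33.0 to 43.4 CPM. The log2 fold changes of Irf7, Irf5 and Irf3 were -0.996, -0.94 and -0.47 (edgeR quasi-likelihood test, adjusted p = 0.566, 0.460 and 0.670). The median of these 3 was -0.31 without KO 1, -0.54 without WT 1 and -1.64 without KO 2. With macrophage marker counts as library size it was -0.26. Without KO 2, where KO 1 alone stood for its group, 1248 of 12852 genes passed the threshold, 10 of them pathway genes. Of these 10, Hsp90b1, Lbp and Il6 were higher and the other 7, among them Unc93b1, Pik3ap1, Irf5 and Irf7, were lower.

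The 6 negative regulators were split, with 3 above 0 and 3 below and a median log2 fold change of -0.08. That median had no fixed sign, with 0.38 without WT 1, 0.21 without KO 1, -0.53 without KO 2 and 0.27 when only library size was used for scaling. Tnfaip3, which encodes the NF-kappaB brake A20, read 105 and 138 CPM in the WT pair and 263 and 525 in the KO pair, with a log2 fold change of 1.40 (edgeR quasi-likelihood test, adjusted p = 0.283). Without KO 1, where KO 2 alone stood for its group, the log2 fold change of Tnfaip3 was 1.85. Socs1, a brake on cytokine signaling, read 151, 80.7, 77.0 and 66.1 CPM, and Tollip read 83.9, 51.6, 43.1 and 98.3 CPM.

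The 9 induced target genes tested had the highest median of the 6 pathway lists, a log2 fold change of 1.03, with 5 above 0 and 4 below. That median was 0.052 without KO 2, 0.44 without WT 1 and 1.61 without WT 2, and it was 0.34 with no filter on low counts, where all 10 genes of the list entered. Il1b, an inflammatory cytokine of myeloid cells, read 143, 584, 1003 and 939 CPM, with WT 1 apart from the other 3. Nfkbiz, a nuclear regulator of secondary response genes, read 71.4, 166, 164 and 422 CPM, and Cxcl10, a chemokine induced by interferon, read 148, 245, 259 and 137 CPM. The log2 fold change of Il1b was 1.14 with an SE of 0.62 and that of Nfkbiz 1.03 with an SE of 0.60 (edgeR quasi-likelihood test, adjusted p = 0.453 and 0.472). Il6, named after its values were seen, read 1.99 and 3.75 CPM against 22.5 and 16.9 CPM, with a log2 fold change of 2.44 (edgeR quasi-likelihood test, adjusted p = 0.150). After TMM scaling, 4 of the 9 genes were higher and 2 lower without overlap, beside 25.3% and 22.6% of all genes tested. On CPM, Il1b, Il6 and Tlr2 were higher in both libraries labeled KO, as were 35.9% of all genes tested. Stromal cells and melanoma cells can also express Il6, and their markers were higher in the same libraries, but their part in its values was not tested.

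**Figure D5:**
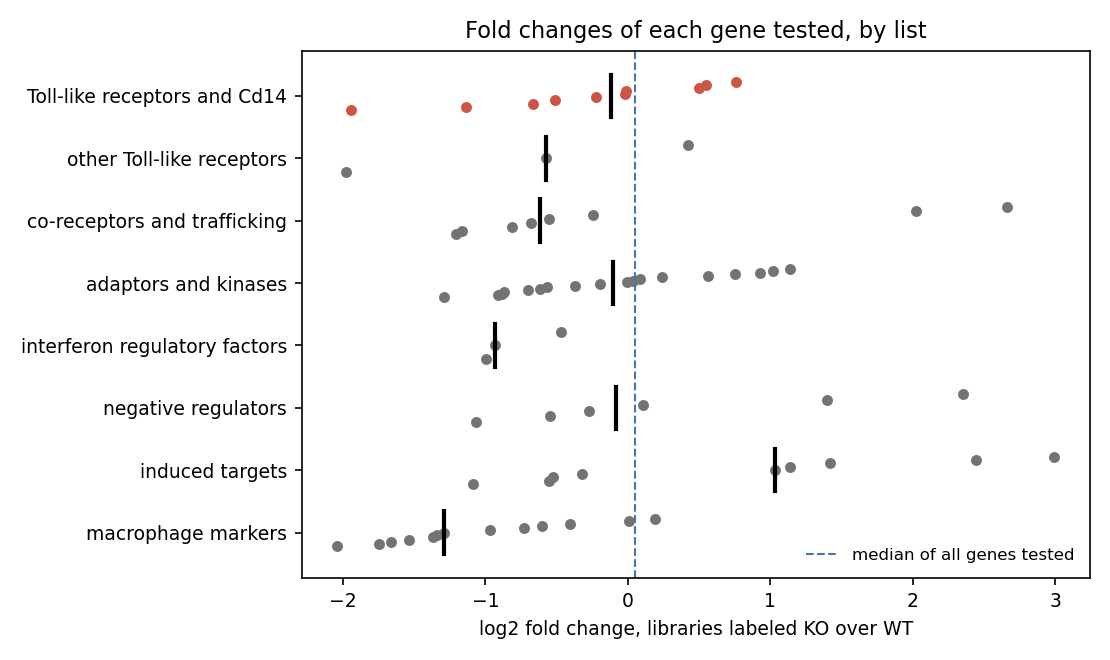
Log2 fold change of the libraries labeled KO over those labeled WT for each gene tested, with 1 row per list, a black bar at the list median and a dashed line at the median of all genes tested, 0.051. The members straddle 0 with a median of -0.12, the induced targets have a median of 1.03, and 11 of the 13 macrophage markers lie below 0.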

How the data were processed

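RNA-seq of 4 libraries was analyzed, 2 labeled WT and 2 labeled KO by their titles. The authors deposited counts of reads on each gene symbol as whole numbers without normalization, in a separate table for every library. Per the submitters' processing notes, HISAT2 2.1.0, HTSeq 0.11.0 and the mouse build mm10 were used. The annotation, the read length and the strand setting are not given in the sources used here. Rows that name no gene (not aligned, outside a gene, ambiguous, of low quality or of several alignments) held 79.5%, 77.2%, 77.7% and 71.2% of the reads of WT 1, WT 2, KO 1 and KO 2 and were left out, so CPM refers to the summed gene rows.

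The filterByExpr function chose the genes tested, with a scaled minimum of 10 counts in 2 libraries and a total of 15. KO was compared with WT in R 4.3.3 with edgeR 4.0.16, using TMM factors, the quasi-likelihood F test with group as the only term, and a prior count of 0.125. P-values were two-sided and adjusted by Benjamini-Hochberg over all 11837 genes tested, with a threshold of 0.05. The biological coefficient of variation was 42.5%. Level per length used CPM per kilobase of the union of exons in GENCODE M21, whose build GRCm38 is the mm10 of the tables. Shared sequence was counted in 50-base windows of the GENCODE transcripts. Intervals of fold changes come from the edgeR fit and include the spread between libraries. Those of marker shares cover counting error alone, because no molecular identifiers marked the molecules behind the reads. The scripts were tested on simulated data, and Python 3.11.15 with matplotlib 3.10.9 drew the figures.

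The members and lists were chosen with earlier results of these data known. The text names all members, up to 3 genes of highest mean CPM per pathway list (none passed the threshold), the gene of highest mean CPM in each marker list, Cd8a, Satb1, Xist and Ddx3y. Any other gene was named after its values were seen. Alternatives were other scalings, filters and tests, DESeq2 1.42.0, a replicate block, thinned counts, another prior count and threshold, another gene length, and each library left out in turn.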

Additional observations from a re-analysis of the deposited data

How the results depend on the processing

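None of the 10 members passed the threshold under any alternative run, with 0 to 2 of them at an unadjusted p under 0.05. Tlr1, Tlr2 and Tlr9 kept the sign of their log2 fold change in every alternative fit. No fold change was fitted with Lyz2 left out of the macrophage markers. On that scale Tlr1 had 1.66 and 1.92 counts per 1000 in the WT pair against 4.12 and 1.07 in the KO pair, so the groups overlapped. The log2 fold change of Tlr3 was 0.031 with upper-quartile factors, 0.30 with library size only, 0.84 with macrophage marker counts as library size, 0.19 in thinned counts, 0.052 with the replicate block and 0.058 with the crossed block, and that of Tlr4 was 0.020, 0.29 and 0.68 with the first 3 of these. With macrophage marker counts Tlr6 had 0.26, Tlr7 0.47 and Tlr13 0.017, and with library size only Tlr7 had 0.087. The median over all genes tested was 0.39 with library size only and 0.84 with macrophage marker counts, against 0.051 as reported. With 1 library left out, and the lone library assumed to vary like the other group, the range was -0.54 to 0.61 for Tlr3, -0.81 to 0.48 for Tlr4, -1.18 to -0.27 for Tlr13, -0.96 to 0.24 for Tlr7, -0.22 to 1.02 for Tlr8 and -0.39 to 1.37 for Cd14. The cause of these shifts was not tested.

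Of all genes, 68 passed as reported, against 134 with library size only, 741 with macrophage marker counts, 583 with no filter, 377 by DESeq2, 556 by the likelihood ratio test, 181 at a threshold of 0.1 and 113 to 1248 with 1 library left out, where the count of 1248 was without KO 2. Of pathway genes, 0 passed as reported, against 6 with macrophage marker counts, 3 with no filter, 1 by DESeq2, 3 by the likelihood ratio test and 0 to 10 with 1 library left out (1 without KO 1, 10 without KO 2). The titles do not state whether the replicate numbers pair the libraries. The differences WT 1 minus WT 2 and KO 1 minus KO 2 had a Pearson correlation of -0.179 over 11837 genes, which are not independent replicates. That value cannot exclude pairing, because the cell make-up also differed between the libraries. The replicate block called 215 genes, and a crossed block, added after seeing the data, called 647 genes and 4 pathway genes. With the longest transcript as length, the mean level of Tlr4 was 8.99 CPM per kilobase, against 6.60 as reported. Leaving Lyz2 out of the macrophage list was added after seeing the data. At 8 to 58 counts for Tlr3, Tlr8 and Tlr9, depth limits what could be detected.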
